A study of Homo sapiens with 6 samples.

Results

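Genes known to be switched on by low oxygen were examined in HepG2-hCAR cells, a clonal derivative of HepG2, a line from a human liver carcinoma, with a lentiviral copy of NR1I3 that doxycycline turns on. NR1I3 encodes the constitutive androstane receptor (CAR), a nuclear receptor that senses drugs in the liver. The members were the rows named CA9, CA12, EGLN1, EGLN3, VEGFA, ADM, BNIP3, NDRG1, ANKRD37 or P4HA1, and 9 of these 10 genes were among the 11456 genes of the deposited table. CA12 was not analysed here. The study comprised 6 libraries, with 3 vehicle controls and 3 that received doxycycline (1 µg/ml) for 72 h, and it asks which transcripts differ when CAR is made. All 6 libraries carry the same transgene in the same clone, the cells were kept in a CO2 incubator under a protocol that names no low-oxygen step, and no library combined doxycycline with cells lacking the transgene, so the antibiotic and the receptor cannot be told apart.

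Cells sense oxygen through the prolyl hydroxylases of the EGLN family, which use oxygen to hydroxylate the alpha subunits of hypoxia-inducible factor (HIF). The hydroxylated subunit is recognised by the VHL ubiquitin ligase and degraded. When oxygen is short, the alpha subunit persists, pairs with ARNT and binds the core letters ACGTG or GCGTG of hypoxia response elements. Its targets serve glycolysis, acid export, mitophagy, collagen folding and vessel growth, and some of them, EGLN3 and EGLN1 included, feed back on the pathway. In liver cells HIF also acts on erythropoietin and on iron and lipid handling.

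Values are in FPKM, which divides fragments by transcript length and by the library's mapped fragments, so levels may be compared between genes, while the depth of each library is unknown. The FPKM of the listed genes summed to 204298 to 209354 per library. NR1I3 was at 3.01 to 3.56 FPKM with vehicle and at 316 to 331 FPKM with doxycycline. Spearman's rho across genes was 0.983 to 0.985 within groups and 0.960 to 0.964 between groups, though genes are not independent replicates. All 11 hepatocyte-lineage markers looked for were listed, and 6 of them (54.5%) were called lower, beside 13.6% of all genes tested. Among these 6, ALB (1.87 to 0.373 FPKM) and AFP (6.01 to 0.320 FPKM) passed the minimum mean of 1 FPKM for testing through their vehicle libraries. The summed level of the 11 markers was 1639 to 1787 FPKM with vehicle and 928 to 953 FPKM with doxycycline. Of the other markers looked for, 0 of 5 endothelial, 1 of 6 fibroblast and 3 of 6 leukocyte genes were listed. These leukocyte genes did not move together: LYZ fell from 550 ± 24.0 to 261 ± 7.33 FPKM and CD68 from 8.50 ± 0.211 to 5.08 ± 0.618 FPKM, while CD14, below the minimum mean of 1 FPKM for testing, was at 0.0578 ± 0.0256 and 1.92 ± 0.0768 FPKM (adjusted p = 1.97e-05 with no filter on low values). The fibroblast gene PDGFRB, which passed that minimum through its doxycycline libraries, rose from 0.856 ± 0.0957 to 1.43 ± 0.0327 FPKM. The part of these shifts in the results below was not tested.

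The start-proximal sequence of 5 members is shown because each holds the HIF core ACGTG. The RefSeq promoter table (GRCh38.p14, a different build from that of the expression table) held 7 of the 9 members, and the 250 bases upstream of the start site were searched on both strands for ACGTG and for GCGTG. The last 170 bases before the start site are printed 5′ to 3′ on the strand of the gene, with every match in capitals. A match on the opposite strand reads CACGT or CACGC, and CACGTG is a match on both strands at overlapping positions.
CA9 (chr9:35673758-35673927, plus strand): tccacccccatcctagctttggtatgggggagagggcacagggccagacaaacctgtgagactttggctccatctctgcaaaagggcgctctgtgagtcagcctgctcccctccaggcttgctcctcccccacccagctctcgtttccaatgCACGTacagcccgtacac
ANKRD37 (chr4:185396671-185396840, plus strand): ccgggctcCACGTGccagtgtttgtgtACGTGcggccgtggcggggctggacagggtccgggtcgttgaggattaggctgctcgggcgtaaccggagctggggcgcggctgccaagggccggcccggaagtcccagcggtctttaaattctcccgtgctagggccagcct
BNIP3 (chr10:131981924-131982093, minus strand): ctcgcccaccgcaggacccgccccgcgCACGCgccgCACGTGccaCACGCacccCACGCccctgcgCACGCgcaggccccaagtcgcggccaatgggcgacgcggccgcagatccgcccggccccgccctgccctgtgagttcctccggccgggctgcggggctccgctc
P4HA1 (chr10:73096867-73097036, minus strand): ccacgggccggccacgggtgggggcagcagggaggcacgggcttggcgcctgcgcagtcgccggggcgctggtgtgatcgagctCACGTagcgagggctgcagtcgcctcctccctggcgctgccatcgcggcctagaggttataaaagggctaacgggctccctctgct
EGLN1 (chr1:231422288-231422457, minus strand): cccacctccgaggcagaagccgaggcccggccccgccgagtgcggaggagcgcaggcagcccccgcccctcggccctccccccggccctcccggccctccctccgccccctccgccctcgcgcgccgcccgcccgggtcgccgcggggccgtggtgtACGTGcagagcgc

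The CA9 match lay 18 to 14 bases before the start site and the EGLN1 match 13 to 9 bases before it. The P4HA1 match lay 86 to 82 bases upstream. ANKRD37 held the core at 2 places, and BNIP3 held it at 1 place among 4 copies of GCGTG. Of the other members in the promoter table, ADM held 1 copy of GCGTG and no ACGTG, and EGLN3 held neither in this window. For comparison, ACGTG was present in the same window of 18.7% of all 27305 promoters in the table and of 24.4% of the 8263 promoters that matched a tested gene. Of the tested genes with ACGTG in this window 13.2% were called lower, and of those without it 13.2% were too. The core is short and common, and a match is a description of the letters only.

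With doxycycline 7 of the 9 members fell and 1 rose, each without overlap between the groups. CA9 and ANKRD37 had the largest decreases, BNIP3 and P4HA1 fell by about the same share, EGLN3, VEGFA and NDRG1 fell with less certainty, and EGLN1 rose. ADM did not pass the test. Of all 10469 genes tested, 13.6% were called lower and 15.2% higher, so that 28.8% were called in all, and the groups did not overlap in 47.1%, 22.3% with doxycycline lower and 24.8% with doxycycline higher. The median log2 fold change of the 9 members was -0.33, the value of EGLN3, against 0.01 for all genes tested. EGLN3, counted among the 7 that fell, passed the minimum mean of 1 FPKM for testing through its vehicle libraries. The members were chosen with earlier results of these data known. The summed FPKM of the 9 members was 229 to 241 with vehicle and 178 to 197 with doxycycline. In bulk RNA, fewer cells expressing a gene and less of its RNA per cell cannot be told apart. The count of members lower dropped to 4 (CA9, ANKRD37, BNIP3 and P4HA1) without vehicle replicate 2, vehicle replicate 3 or doxycycline replicate 3. The same 4 were lower when a term for the replicate number was added to the fit. Whether replicates were separate cultures is not stated in the labels, so the p-values may measure technical spread only.

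**Figure D1:**
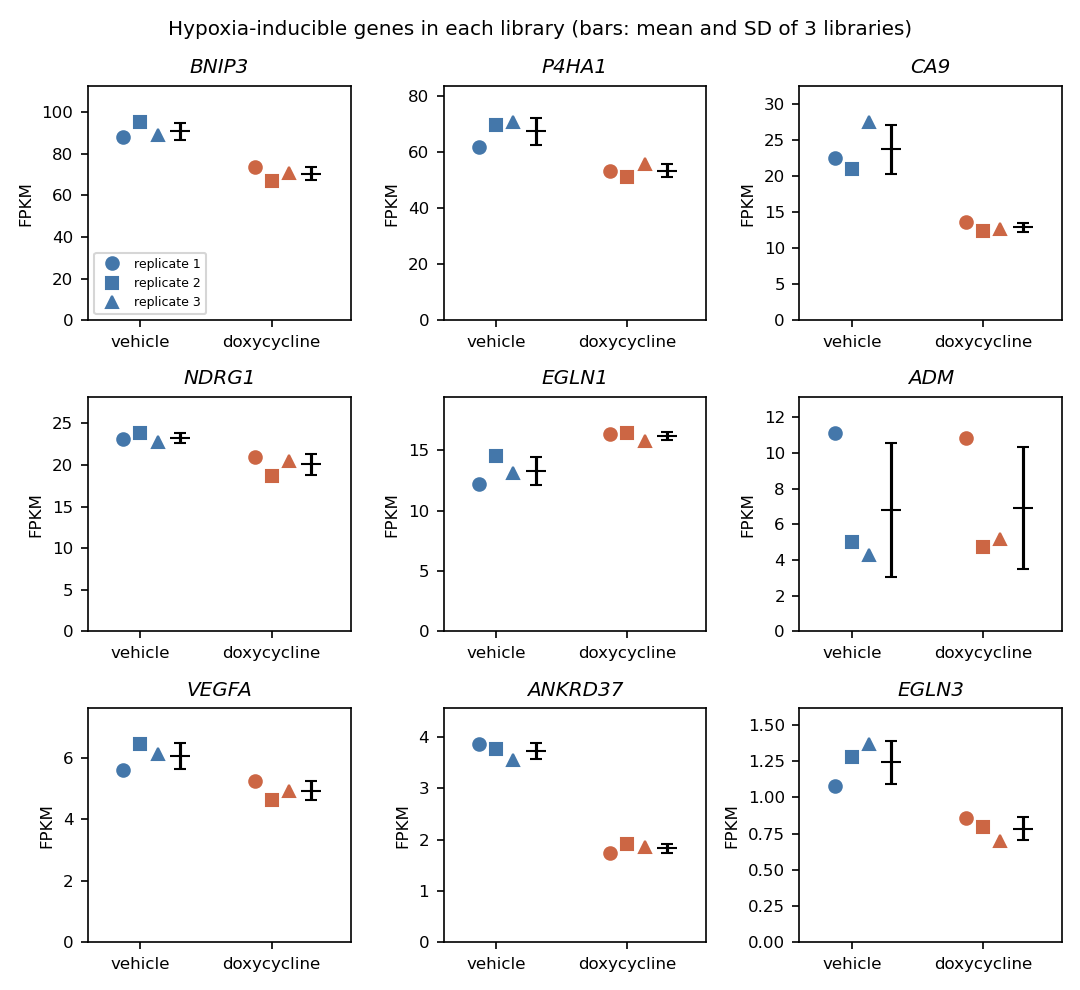
Level of each of the 9 hypoxia-inducible genes in FPKM (vertical axis, from 0) in the 3 vehicle and 3 doxycycline libraries, with 1 marker shape per replicate number and the mean and SD of each group beside the points. The groups do not overlap except for ADM, whose replicate 1 is near 11 FPKM in both groups, and EGLN1 is the gene with higher values under doxycycline.

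Vehicle levels spanned from 90.6 FPKM for BNIP3 to 1.24 FPKM for EGLN3. P4HA1 was second at 67.3 FPKM, and CA9 and NDRG1 followed at 23.7 and 23.3 FPKM, with libraries that overlapped. EGLN1 came next at 13.3 FPKM, ADM and VEGFA overlapped at 6.80 and 6.07 FPKM, and ANKRD37 was at 3.73 FPKM. With doxycycline CA9 moved from the third to the fifth place by mean level, behind NDRG1 and EGLN1.

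Among the effectors, CA9 encodes a carbonic anhydrase of the cell surface that hydrates carbon dioxide and acidifies the space outside the cell, and it is a widely used marker of HIF activity. On chromosome 9 of GRCh37 (35673853 to 35681156, plus strand), CA9 was at 22.6, 21.1 and 27.6 FPKM with vehicle and at 13.7, 12.4 and 12.7 FPKM with doxycycline. All 3 treated libraries lay below the lowest vehicle library, and the vehicle libraries were the more spread. The mean was 1.84-fold lower, at 12.9 ± 0.653 against 23.7 ± 3.40 FPKM (SD, n = 3 each), with a log2 fold change of -0.82 (SE 0.10, adjusted p = 2.05e-03). Only 1.73% of the genes tested had a lower log2 fold change. The first part of CA9 overlaps ARHGEF39 on the opposite strand, which was at 2.71 ± 0.407 and 2.16 ± 0.186 FPKM and did not pass (adjusted p = 0.131). Of the other carbonic anhydrases looked for, the mitochondrial CA5A fell from 1.91 ± 0.208 to 1.08 ± 0.152 FPKM (adjusted p = 6.92e-03), and the cytosolic CA13 was at 2.27 ± 0.220 and 2.40 ± 0.0964 FPKM (adjusted p = 0.574). CA2, below the minimum mean of 1 FPKM for testing, was higher with doxycycline, at 0.188 ± 0.120 and 0.550 ± 0.0347 FPKM. With no filter on low values the adjusted p of CA2 was 0.0153.

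ANKRD37, a small protein with ankyrin repeats whose gene is a direct HIF target, had the smallest adjusted p of the members. ANKRD37 (chromosome 4, 186317175 to 186321782, plus strand) was at 3.87, 3.76 and 3.56 FPKM with vehicle and at 1.74, 1.91 and 1.85 FPKM with doxycycline. Both groups were tight, and the gap between them was wider than either group's range. The mean fell by 50.8%, a log2 fold change of -0.74 (SE 0.05, adjusted p = 2.35e-04). Its end overlaps UFSP2 on the opposite strand, which was at 7.89 ± 1.06 and 7.64 ± 0.620 FPKM (adjusted p = 0.821). The promoter shown above for ANKRD37 is the one with the core ACGTG at 2 places.

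BNIP3 encodes a protein of the outer mitochondrial membrane that recruits the autophagy machinery to mitochondria. BNIP3 (chromosome 10, 133779959 to 133795517, minus strand) was at 87.9, 95.3 and 88.8 FPKM with vehicle and at 73.6, 67.0 and 70.8 FPKM with doxycycline. The groups did not overlap, and the mean fell by 22.3% (log2 fold change -0.36, SE 0.05, adjusted p = 2.82e-03). Its paralogue BNIP3L, also a mitophagy receptor, was at 29.1 ± 2.06 and 24.4 ± 2.03 FPKM and missed the threshold (adjusted p = 0.0544).

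P4HA1 is the alpha subunit of the prolyl 4-hydroxylase that hydroxylates collagen in the endoplasmic reticulum, an enzyme distinct from the EGLN proteins. P4HA1 (chromosome 10, 74766975 to 74856732, minus strand) was at 61.8, 69.4 and 70.7 FPKM with vehicle and at 53.3, 51.1 and 55.6 FPKM with doxycycline. Every treated library was below every vehicle library, and the mean fell by 20.8% (log2 fold change -0.33, SE 0.06, adjusted p = 9.66e-03). The other alpha subunit P4HA2 was at 5.45 ± 0.199 and 5.81 ± 0.0697 FPKM (adjusted p = 0.224). P4HB, the shared beta subunit, was at 117 ± 4.99 and 110 ± 3.04 FPKM (adjusted p = 0.138). Of these 3 subunits only P4HA1 was called, though the differences between the subunits' responses were not tested.

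NDRG1 is a cytoplasmic protein induced by hypoxia and other stresses. NDRG1 (chromosome 8, 134249414 to 134314265, minus strand) was at 23.2, 23.9 and 22.7 FPKM with vehicle and at 21.0, 18.7 and 20.5 FPKM with doxycycline. The groups were separate but close, and the mean fell by 13.7% (log2 fold change -0.20, SE 0.05, adjusted p = 0.0283). This call ended without vehicle replicate 1 (adjusted p = 0.0725), 2 (0.0856) or 3 (0.0573) or doxycycline replicate 3 (0.0574), and all alternatives spanned 0.0240 to 0.0856. The related NDRG3 was at 23.8 ± 6.93 and 20.9 ± 7.40 FPKM and NDRG2 at 3.68 ± 0.457 and 3.39 ± 0.974 FPKM, and neither passed (adjusted p = 0.655 and 0.669). NDRG4, below the minimum mean of 1 FPKM for testing, was higher with doxycycline, at 0.451 ± 0.0639 and 1.26 ± 0.328 FPKM. With no filter on low values the adjusted p of NDRG4 was 0.00865.

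Of the secreted members, VEGFA is the growth factor that directs new vessels toward tissue short of oxygen. VEGFA (chromosome 6, 43737921 to 43754224, plus strand) was at 5.61, 6.46 and 6.14 FPKM with vehicle and at 5.26, 4.65 and 4.91 FPKM with doxycycline. The highest treated library was just below the lowest vehicle library, and the mean fell by 18.6% (log2 fold change -0.25, SE 0.07, adjusted p = 0.0349). The VEGFA call ended without vehicle replicate 2 (adjusted p = 0.0957) or 3 (0.0953) or doxycycline replicate 2 (0.0958) or 3 (0.0893), and all alternatives spanned 0.0290 to 0.103. VEGFB, a related ligand, was at 12.2 ± 0.620 and 12.4 ± 0.528 FPKM (adjusted p = 0.808), and PGF at 1.17 ± 0.139 and 0.934 ± 0.366 FPKM (adjusted p = 0.398).

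The neuropilins, coreceptors that bind VEGFA and semaphorins, moved in the opposite direction to VEGFA. NRP2 was at 3.82, 3.94 and 3.58 FPKM with vehicle and at 16.1, 16.1 and 15.6 FPKM with doxycycline, a 4.22-fold rise (log2 fold change 1.83, adjusted p = 1.09e-05). NRP1 rose 1.82-fold, from 9.50 ± 0.466 to 17.3 ± 0.538 FPKM (adjusted p = 1.13e-04). The kinase receptors FLT1 and KDR were not analysed here.

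ADM encodes adrenomedullin, a peptide hormone that widens blood vessels. ADM (chromosome 11, 10326227 to 10328944, plus strand) was at 11.1, 5.01 and 4.26 FPKM with vehicle and at 10.9, 4.74 and 5.19 FPKM with doxycycline. Replicate 1 was more than 2 times the others in each group, by ratios of 2.22 and 2.09 to the next library, and the groups overlapped throughout. The log2 fold change was 0.04 with a 95% interval of -0.95 to 1.04 (adjusted p = 0.949), so a change as large as that of CA9 in either direction lay within it. Without replicate 1 of both groups, an alternative chosen after these values were seen, it was 0.08 with an SE of 0.10 (adjusted p = 0.589, and 0.435 to 0.971 over all alternatives). The receptor genes CALCRL and RAMP1 to RAMP3 were not analysed here.

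The oxygen sensors EGLN1 and EGLN3 went in opposite directions. EGLN1, or PHD2, is the hydroxylase that sets HIF-1 alpha stability in most cells at normal oxygen, and EGLN3, or PHD3, is the family member most strongly induced by HIF. EGLN1 (chromosome 1, 231499497 to 231560790, minus strand) was at 12.2, 14.5 and 13.1 FPKM with vehicle and at 16.3, 16.5 and 15.8 FPKM with doxycycline. Each treated library exceeded each vehicle library, and the mean rose 1.22-fold (log2 fold change 0.27, SE 0.06, adjusted p = 0.0251). This call ended when any 1 library other than vehicle replicate 2 was left out (adjusted p = 0.0505 without vehicle replicate 1, 0.0726 without vehicle replicate 3, and 0.0727, 0.0742 and 0.0552 without doxycycline replicates 1, 2 and 3; all alternatives, 0.0101 to 0.124). The EGLN1 promoter holds the core ACGTG as those of CA9 and ANKRD37 do, as shown above.

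EGLN3 (chromosome 14, 34393437 to 34931980, minus strand) was at 1.08, 1.28 and 1.37 FPKM with vehicle and at 0.855, 0.796 and 0.699 FPKM with doxycycline. The groups did not overlap, and the mean fell by 36.9% from the lowest level of the members (log2 fold change -0.33, SE 0.07, adjusted p = 0.0169). On the log2(FPKM + 1) scale the change of so low a gene is understated, and with a pseudocount of 0.1 it was -0.60. EGLN3 passed the minimum of 1 FPKM with a mean of 1.01 FPKM that its vehicle libraries carried. Its call ended without vehicle replicate 2 (adjusted p = 0.0552) or 3 (0.0526) or doxycycline replicate 3 (0.0552), and all alternatives spanned 0.0130 to 0.0648. The interval listed for EGLN3 contains SPTSSA on the same strand, which rose from 22.5 ± 0.586 to 27.9 ± 0.578 FPKM (adjusted p = 1.49e-03), and how fragments were divided between the 2 genes is not given in the sources used here. The remaining family member EGLN2, or PHD1, was at 4.34, 4.57 and 4.56 FPKM with vehicle and at 4.54, 5.86 and 3.94 FPKM with doxycycline (adjusted p = 0.743).

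**Figure D2:**
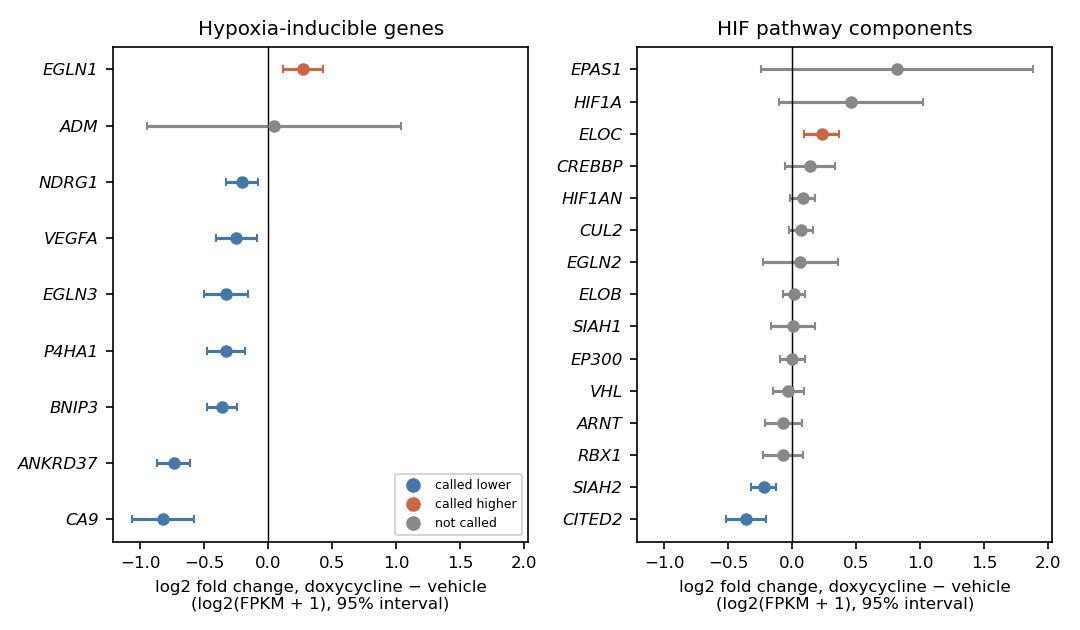
Log2 fold change of doxycycline minus vehicle with its 95% interval (horizontal axis, on the log2(FPKM + 1) scale) for the 9 hypoxia-inducible genes (left) and the 15 tested components of the HIF pathway (right), coloured by call. Intervals of 7 members lie below 0 and that of EGLN1 above it, while most pathway components straddle 0 and HIF1A and EPAS1 have wide intervals.

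The HIF subunits and their regulators mostly did not pass. Of 17 components looked for, 15 were tested, 2 (13.3%) were called lower and 1 (6.67%) higher, beside 13.6% and 15.2% of all genes, and their median log2 fold change was 0.01. HIF1A, the ubiquitous alpha subunit, was at 23.1, 23.5 and 36.5 FPKM with vehicle and at 32.9, 32.8 and 49.0 FPKM with doxycycline. Replicate 3 was the highest in each group and the groups overlapped, with a mean 1.38-fold higher under doxycycline (log2 fold change 0.46, SE 0.23, adjusted p = 0.193). EPAS1, the alpha subunit HIF-2 alpha, was at 26.1, 11.8 and 28.3 FPKM with vehicle and at 21.7, 48.7 and 48.9 FPKM with doxycycline (log2 fold change 0.82, SE 0.44, adjusted p = 0.214). Both alpha subunits had higher means with doxycycline, libraries that overlapped between the groups, and differences that did not pass the test. When a term for the replicate number was added to the fit, HIF1A was called higher (adjusted p = 0.00411) and EPAS1 was not called (0.263).

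ARNT, the partner of both alpha subunits, was at 5.02 ± 0.0913 and 4.73 ± 0.355 FPKM (adjusted p = 0.413). VHL, which recognises hydroxylated HIF, was at 15.6 ± 0.727 and 15.3 ± 0.674 FPKM (adjusted p = 0.673). HIF1AN, the asparaginyl hydroxylase that blocks HIF coactivator binding, was at 10.3 ± 0.238 and 11.0 ± 0.347 FPKM (adjusted p = 0.180). The components called lower were CITED2, a HIF target that competes with HIF for its coactivators (13.5 ± 0.379 to 10.3 ± 0.899 FPKM, adjusted p = 8.89e-03), and SIAH2, a ubiquitin ligase for EGLN proteins (30.0 ± 1.01 to 25.5 ± 0.886 FPKM, adjusted p = 9.37e-03). ELOC, the elongin C subunit of the VHL ligase, was the component called higher (8.36 ± 0.517 to 9.97 ± 0.419 FPKM, adjusted p = 0.0272), and its call ended without vehicle replicate 1 (0.0747) or 2 (0.0791) or doxycycline replicate 2 (0.0658) or 3 (0.0798), and all alternatives spanned 0.0226 to 0.108.

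Among other genes of the pathway, more were called lower than higher. The lists were chosen with earlier results of these data known, so their counts are a description only. Over the lists of components and further HIF targets, 92 genes in all, 80 were tested, and 26 (32.5%) were called lower and 9 (11.2%) higher, with a median log2 fold change of -0.04. Over all genes tested these shares were 13.6% and 15.2% and the median was 0.01, and the counts of the separate lists below are to be read beside the same shares. The log2 fold change was below 0 for 45 of the 80 genes, and for 5051 of all 10469 genes tested. The count of pathway genes called higher was 5 without vehicle replicate 1, 4 without vehicle replicate 2 and 4 without doxycycline replicate 3. Of 23 tested targets of glucose use 11 fell and 3 rose. The called decreases in mean FPKM ranged from 10.2% for ALDOA to 41.5% for SLC2A3. The transporters went apart, SLC2A3 falling from 42.9 ± 1.49 to 25.1 ± 1.80 FPKM and SLC2A1 rising from 236 ± 3.04 to 317 ± 3.37 FPKM. PGM1, which links glucose and glycogen, fell from 28.0 ± 0.630 to 17.8 ± 0.890 FPKM, and the phosphofructokinase PFKP rose from 10.2 ± 0.105 to 19.8 ± 1.70 FPKM.

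Of 9 tested targets of mitochondria and mitophagy 3 fell and 0 rose at an adjusted p below 0.05. AK4, a mitochondrial adenylate kinase, fell from 32.2 ± 1.46 to 20.6 ± 0.968 FPKM. MXI1, a MYC antagonist, was at 10.6, 11.2 and 11.4 FPKM with vehicle and at 3.99, 8.07 and 3.89 FPKM with doxycycline, a call (adjusted p = 0.0269) that ended when any 1 library other than doxycycline replicate 2 was left out (adjusted p = 0.0684 to 0.0777; all alternatives, 2.99e-04 to 0.153). HIGD1A, a hypoxia-induced protein of the mitochondrial inner membrane chosen after its values were seen, was at 44.8 ± 0.0144 and 72.5 ± 20.8 FPKM and did not pass (adjusted p = 0.0714).

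Of 16 tested targets of collagen, secretion and vessels 6 fell and 3 rose. TF, transferrin, which is also among the hepatocyte-lineage markers, fell from 149 ± 1.42 to 60.5 ± 4.41 FPKM, and IGFBP1, a secreted binder of insulin-like growth factors, from 551 ± 53.7 to 296 ± 65.0 FPKM. LOXL2, a lysyl oxidase, rose 2.96-fold, from 0.815 ± 0.159 to 2.41 ± 0.289 FPKM, and passed the minimum of 1 FPKM with a mean of 1.61 FPKM that its doxycycline libraries carried. ANGPTL4, a lipoprotein lipase inhibitor that PPAR receptors also induce, was at 1.31 ± 0.134 and 2.00 ± 0.236 FPKM, a call (adjusted p = 0.0174) that ended without vehicle replicate 2 (0.0534) or doxycycline replicate 1 (0.0560) or 3 (0.0585), and all alternatives spanned 0.0136 to 0.0893. EPO, erythropoietin, a classical HIF target of liver and kidney, was below the minimum for testing and was chosen after its values were seen. EPO was at 1.01, 0.948 and 1.40 FPKM with vehicle and at 0.0629 and 0.126 FPKM in doxycycline replicates 2 and 3, and was listed at 0 in replicate 1. With no filter on low values EPO had a log2 fold change of -0.99 (SE 0.10, adjusted p = 8.41e-04).

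Of 17 tested targets of signalling, chromatin and lipid 4 fell and 2 rose. BHLHE40, a transcriptional repressor, fell from 36.8 ± 1.99 to 26.8 ± 2.18 FPKM, and HILPDA, a lipid droplet protein that inhibits triglyceride breakdown, from 5.13 ± 0.187 to 3.50 ± 0.226 FPKM. WSB1, a ubiquitin ligase subunit, rose from 10.8 ± 0.177 to 13.9 ± 0.942 FPKM. JMJD6, a nuclear oxygenase, was at 7.68 ± 0.0598 and 8.80 ± 0.315 FPKM, a call (adjusted p = 0.0234) that ended when any 1 library other than doxycycline replicate 1 was left out (adjusted p = 0.0604 to 0.0717; all alternatives, 0.0209 to 0.0758).

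**Figure D3:**
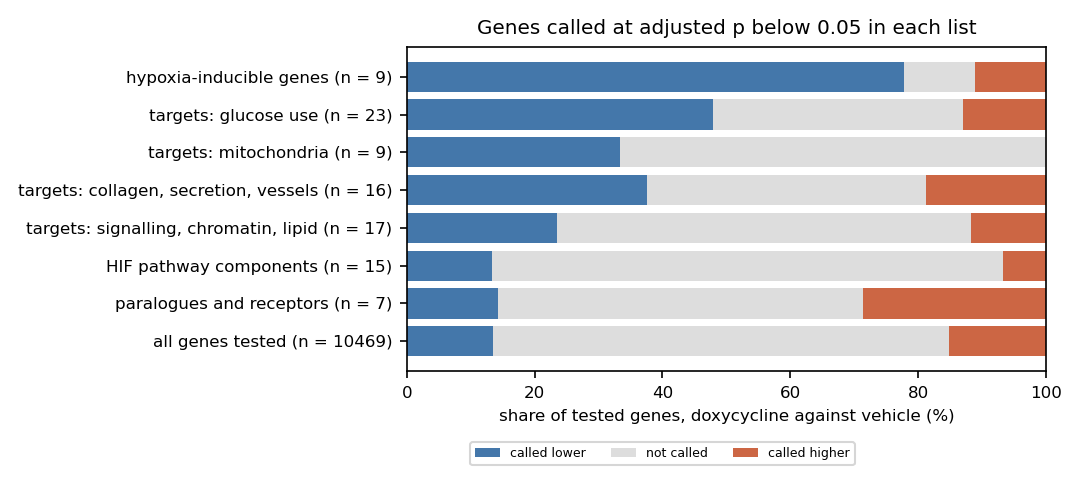
Share of tested genes called lower, not called and called higher with doxycycline (horizontal axis, percent) for the hypoxia-inducible genes, the lists of other pathway genes, their paralogues and receptors, and all genes tested, with the number tested beside each name. The share called lower is 77.8% for the 9 hypoxia-inducible genes and 13.6% for all genes tested. The first share counts EGLN3, which passed the minimum mean of 1 FPKM for testing through its vehicle libraries. Members and lists were chosen with earlier results of these data known.

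Across 17 alternative settings, CA9, BNIP3 and P4HA1 were called lower in all 17, and ANKRD37 in the 16 that tested it. The highest adjusted p over these settings was 0.0278 for CA9, 0.0238 for BNIP3 and 0.0371 for P4HA1. Median-ratio scaling and quantile normalization left the counts at 7 lower and 1 higher. The remaining calls, for EGLN1, EGLN3, VEGFA and NDRG1, were lost without certain single libraries, as given beside each gene, and the direction stayed the same in every setting that tested them. With all 6 libraries kept, a term for the replicate number (replicate block) also ended the calls of EGLN3, VEGFA and NDRG1 (adjusted p = 0.0648, 0.103 and 0.0756). It left 4 members lower.

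**Figure D4:**
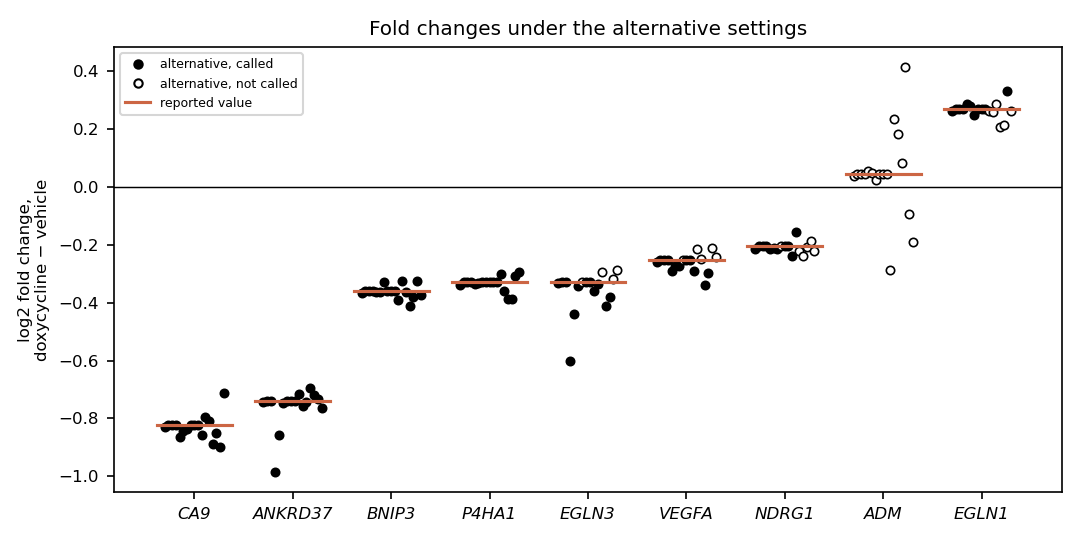
Log2 fold change of doxycycline minus vehicle (vertical axis) for each member under each alternative setting, filled for called genes and open for the others, with the reported value as a line. ADM spans both sides of 0 and is never called, whereas every point of CA9, ANKRD37, BNIP3 and P4HA1 is filled and below 0.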

How the data were processed

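Polyadenylated RNA of 6 libraries was sequenced after strand-specific (dUTP) library preparation, per the labels' protocols. The deposited values are FPKM computed by the authors, 1 column per library. FastQC, cutadapt, HISAT2 and StringTie and the build GRCh37 are named in the submitters' processing notes, and options and annotation release are not given in the sources used here. The table had 11461 protein-coding entries, of which 10 shared 5 symbols. The entry with the highest mean represented a symbol, leaving 11456 genes. Depth is unknown, so no counting intervals are given.

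The 10469 genes with a mean of at least 1 FPKM over the 6 libraries were compared on the log2(FPKM + 1) scale with limma (version 3.58.1, R 4.3.3), using group as sole term, a variance trend and a two-sided test. P-values were adjusted (Benjamini-Hochberg) over all genes tested, and a gene was called below 0.05. "Fold" and percent changes are of mean FPKM. Log2 fold changes are on the log2(FPKM + 1) scale, which understates the change of low genes. The fit was also run on simulated data with errors drawn independently for each gene and library. Errors shared between libraries or genes were not covered by that simulation. Errors are SD with n = 3 libraries per group.

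The members and lists were chosen with earlier results of these data known. Named genes were all members, 6 core components, and the 2 called genes with the largest rise and the 2 with the largest fall of each list; paralogues, subunits and overlapping genes given beside a member were added to complete its family. The alternatives were 2 pseudocounts (0.1 and 0.5), no filter or a minimum of 5 FPKM, 2 scalings, no trend, robust moderation, a replicate block, summed entries, each library left out, and, added after seeing the data, replicate 1 of both groups left out. Figures were drawn with matplotlib 3.10.9.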

Additional observations from a re-analysis of the deposited data

How the results depend on the processing

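Of 36 genes named by rule under 17 settings, 553 values kept direction and side of the threshold, 46 lost the call, 1 gained it and 4 changed sign. Pseudocounts, filters, scalings, the variance model and summed entries changed no call among those of the 36 genes that they tested. Over all pathway genes, the count called lower was 24 with quantile normalization and 27 with median-ratio scaling, against 26. The sign changes were ADM without vehicle replicate 2 (-0.093) or 3 (-0.19) or doxycycline replicate 1 (-0.29) and EGLN2 without doxycycline replicate 2 (-0.069), all not called; leaving out 1 library gave ADM log2 fold changes of -0.29 to 0.41 and EGLN2 ones of -0.069 to 0.17. Leaving out libraries gave 4 to 7 members lower, 0 to 1 higher, 18 to 25 pathway genes lower and 3 to 9 higher. Without replicate 1 of both groups, which leaves 2 libraries a group, 1680 genes were called in all against 3012, and the calls of CITED2 (adjusted p = 0.0893), SIAH2 (0.0675) and WSB1 (0.0685) ended. A minimum of 5 FPKM left ANKRD37 and EGLN3 untested. Deviations of same-numbered libraries from their group means correlated at 0.015, -0.032 and 0.092. Of the 3 numbers only number 3 correlated best with itself, and the main fit did not take the number as a pairing. Such a correlation over all genes cannot exclude a link between same-numbered libraries at single genes, so the replicate block is given as well. With the replicate block 4 members were lower (CA9, ANKRD37, BNIP3 and P4HA1), EGLN3 (adjusted p = 0.0648), VEGFA (0.103), NDRG1 (0.0756) and JMJD6 (0.0610) were not called, HIF1A was called higher (log2 fold change 0.46, adjusted p = 0.00411), and 2343 genes were called in all. Depth is unknown, and 3 libraries a group limit the precision.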

Other observations

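The replicate 1 libraries of both groups stood above replicates 2 and 3 at ADM, and other genes shared that pattern. Of the 10469 genes tested, 14 had replicate 1 at least 1.5 times above both other libraries in each group, and 10 and 9 genes did so for replicates 2 and 3. Within vehicle alone 129, 96 and 107 genes did so for replicates 1, 2 and 3, and within doxycycline alone 90, 115 and 94. Whether more genes shared the pattern than unlinked replicate numbers would give was not tested. ADM had rank 4 among the 14 by the smaller of its 2 ratios. CLDN4, a tight junction protein, had rank 1, at 25.1 and 35.4 FPKM in replicate 1 and at 0.0988 to 0.383 FPKM in the other 4 libraries. GADD45B, a stress-induced gene, was at 2.54 FPKM in vehicle replicate 1 against 1.21 and 1.31 FPKM, and at 7.26 FPKM in doxycycline replicate 1 against 2.82 and 3.76 FPKM. These genes were chosen after their values were seen.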
